A study of Homo sapiens with 4 samples.

Results

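The 10 genes described here were 3 members of the EGR family (EGR1, EGR2 and EGR3), 3 of the NR4A family (NR4A1, NR4A2 and NR4A3), 3 IER genes (IER2, IER3 and IER5) and MYC. They were chosen by symbol as immediate early genes, with earlier results of these data known. All 10 were found among the 24424 gene symbols counted in every library. Immediate early genes are switched on by factors that are already in the cell, with no need for new protein synthesis. Kinase cascades activate such factors, among them serum response factor, CREB and NF-kB. Many of the transcripts decay quickly, so that their level follows the signal in time. Most encode transcription factors, and the first proteins made shape the later response of the cell.

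RNA was sequenced from BEAS-2B, an established line of immortalised human bronchial epithelial cells with the genotype given as wild type. Control cells had no treatment. LPS cells received lipopolysaccharide, a component of the gram-negative bacterial envelope, for 2 hr. WT PDZ+LPS and mut PDZ+LPS cells were given a peptide for 24 hr and then LPS for 2 hr. The WT PDZ peptide was based on the first PDZ domain of the tight junction protein ZO-1 and carried a TAT sequence for entry into cells, and in the mut PDZ peptide a pair of glycines was changed to alanines. Each condition had 1 library, and a peptide without LPS was not analysed here. No difference has a replicate check, no p-value is given, and the 95% intervals allow for nothing but counting error between the 2 libraries. The comparison of LPS with Control addresses how the early genes stood after 2 hr of LPS, and those of the peptide libraries with LPS address whether either peptide moved them.

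The libraries held between 19682929 and 25155647 counts, the fewest in mut PDZ+LPS. Counts were divided by geometric size factors, which gives normalized counts, and 1 was added before log2. The intervals of fold changes were computed without this 1, so low genes need not lie near the middle of theirs. A gene was called changed at a difference of at least 2-fold with at least 16 normalized counts in one of the 2 libraries compared. All 10 epithelial markers examined reached 16 normalized counts in every library, with TP63 at 1.28 (0.79 to 1.84) on the log2 scale in LPS/Control as the only one of them changed there, whereas 0 of 7 leukocyte and 0 of 3 endothelial markers did in any. Of 5 fibroblast markers 2 did, and the highest of them, COL1A1, had between 288 and 422 normalized counts. The epithelial markers EPCAM, KRT14, TP63 and KRT19 stood below COL1A1 in every library, as did CDH1 in mut PDZ+LPS. The other epithelial markers stood above it in every library. In mut PDZ+LPS the levels also varied with transcript length. Across 12119 genes, which are not independent replicates and share the libraries, log2 fold changes went with length at a Spearman's rho of -0.605 for mut PDZ+LPS/LPS but 0.0750 for WT PDZ+LPS/LPS. The fold changes named for early genes between mut PDZ+LPS and the LPS or WT PDZ+LPS library are therefore given before and after a length and GC correction, which takes out the trends with transcript length and then with GC content. Levels, shares of counts, comparisons of pattern between genes and the plot of fold changes against Control are not corrected.

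Promoter windows in the RefSeq annotation (GRCh38.p14), from 250 bases before to 50 bases after a transcription start, were matched for 6 of the 10 genes, with 9 windows in all. No window was used for EGR3, NR4A2, IER3 and MYC. The windows of a whole chromosome were left out of the matching, so a gene without a used window can still have an entry. Both strands were searched for the CArG box (the site of serum response factor), the CRE core TGACGT (the site of CREB, read as ACGTCA on the other strand), the NF-kB motif, the EGR motif GCGNGGGCG, the E-box CACGTG of MYC and its partners, and the TATA box (TATAAA or TATATA). The stretches below are printed because they hold the CArG boxes and CRE cores, which stand in capitals, upstream of EGR1, the member that stood lower with LPS, and of NR4A3 and EGR2, which had few counts. The EGR1 stretch is chr5:138465328-138465432 on the plus strand, the NR4A3 stretch is chr9:99821761-99821880 on the plus strand, and the EGR2 stretch is chr10:62816401-62816452 on the minus strand.
EGR1: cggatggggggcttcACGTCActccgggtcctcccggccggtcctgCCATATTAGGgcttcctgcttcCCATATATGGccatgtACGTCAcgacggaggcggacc
NR4A3: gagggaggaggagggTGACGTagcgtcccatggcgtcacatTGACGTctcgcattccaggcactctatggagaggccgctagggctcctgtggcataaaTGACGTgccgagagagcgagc
EGR2: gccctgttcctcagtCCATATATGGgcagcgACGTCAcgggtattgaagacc

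Positions are counted from the transcription start, with -1 as the base before it. In the EGR1 window the CArG boxes began at -105 and -83 and the CRE cores at -136 and -67, and an EGR motif began at -198. The NR4A3 window had CRE cores at -109, -83 and -25 and no other searched motif. The EGR2 window shown had its CArG box at -71 and its CRE core at -55. Another EGR2 window held an NF-kB motif, an E-box and an EGR motif, and the IER5 window held a TATA box at -31. The searched letters were not in the windows of NR4A1 and IER2. Of all 35116 windows in the table, 1.29% held a CArG box, 7.98% a CRE core, 11.3% an NF-kB motif, 9.43% an EGR motif, 7.26% an E-box and 13.7% a TATA box. A match describes the letters and is not evidence of binding.

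After 2 hr of LPS, 6 of the 10 early genes were at least 2-fold higher than in Control, namely EGR3, NR4A1, NR4A2, IER3, IER5 and MYC, and 0 were at least 2-fold lower. Of the 13277 genes that passed the level rule, 3.46% were at least 2-fold higher and 1.41% at least 2-fold lower. Over the 9 early genes that averaged 16 or more normalized counts the median log2 fold change was 1.26, against -0.0010 over all 13072 such genes. EGR1 was the only one of the 10 with a lower level in LPS than in Control. EGR2 did not reach 16 normalized counts in any library and was left out of these calls. EGR3 and NR4A2 had 4.35 and 13.9 normalized counts in Control, so they passed the level rule through the LPS library alone. In RNA from a whole culture, a change in each cell and a change in the number of cells with the transcript cannot be told apart.

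EGR1 encodes a zinc finger transcription factor that is among the best known immediate early proteins. It was counted 4511 times in Control, 2167 times in LPS, and 2254 and 2340 times after WT PDZ and mut PDZ, respectively, which gave 3926, 2038, 2276 and 2749 normalized counts. All values below follow this order of the libraries. The Control library was thus the highest of the 4, and LPS alone was the lowest, with WT PDZ+LPS and mut PDZ+LPS between them. The log2 fold change in LPS/Control was -0.95 (95% interval, -1.02 to -0.87), a level 1.93-fold lower and the 214th lowest of the 13277 values, so that EGR1 stood just short of the 2-fold threshold. The call depended on the scaling, since EGR1 was called lower at -1.08 with total count scaling and at -1.01 with upper quartile scaling.

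EGR2 and EGR3 encode close relatives of EGR1 with the same kind of DNA-binding domain. EGR3 was counted 5, 30, 36 and 32 times. The Control count was the lowest of the 4, and EGR3 stood at 2.45 on the log2 scale in LPS/Control (1.32 to 4.42). Without the added 1, as in the interval, its level in LPS was 6.49 times that in Control. EGR2 was counted 6, 15, 6 and 11 times. Its interval in LPS/Control ran from -0.013 to 3.09, so that a difference was not detectable at this depth. EGR1 made up 99.8% of the counts of the 3 EGR genes in Control (Clopper-Pearson 95% interval, 99.6% to 99.9%) and 98.0% in LPS (97.3% to 98.5%). The share of EGR3 was 0.111% (0.0359% to 0.258%) in Control and 1.36% (0.917% to 1.93%) in LPS, and it stayed between 1.34% and 1.57% in the peptide libraries.

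The NR4A genes encode orphan nuclear receptors whose activity is set mainly by how much of the protein is made. NR4A2 was counted 16, 181, 163 and 206 times, or 13.9, 170.3, 164.6 and 242.0 normalized counts. Of the 10 genes it had the largest difference between LPS and Control, at 3.52 (2.87 to 4.45) on the log2 scale, the 61st highest among the 13277 genes. NR4A1 had 212, 516, 493 and 515 counts, and 184.5, 485.4, 497.8 and 605.1 normalized counts. Its log2 fold change in LPS/Control was 1.39 (1.16 to 1.63). NR4A3, the least abundant NR4A gene in the LPS-treated libraries, had 21, 34, 37 and 35 counts, and its interval in LPS/Control ran from -0.019 to 1.67 around a value of 0.77.

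The make-up of the NR4A family therefore differed between the libraries. NR4A1 held 85.1% of the counts of the family in Control (80.1% to 89.3%) and 70.6% in LPS (67.1% to 73.9%), whereas NR4A2 went from 6.43% (3.72% to 10.2%) to 24.8% (21.7% to 28.1%). These shares use the counts of 1 library at a time and do not depend on the scaling between libraries. With WT PDZ the share of NR4A2 was 23.5% (20.4% to 26.9%), with mut PDZ it was 27.2% (24.1% to 30.6%), and both intervals overlapped that of LPS. Per 1000 nt of transcript, the share of NR4A2 was 6.71% in Control and 25.4% in LPS.

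**Figure D1:**
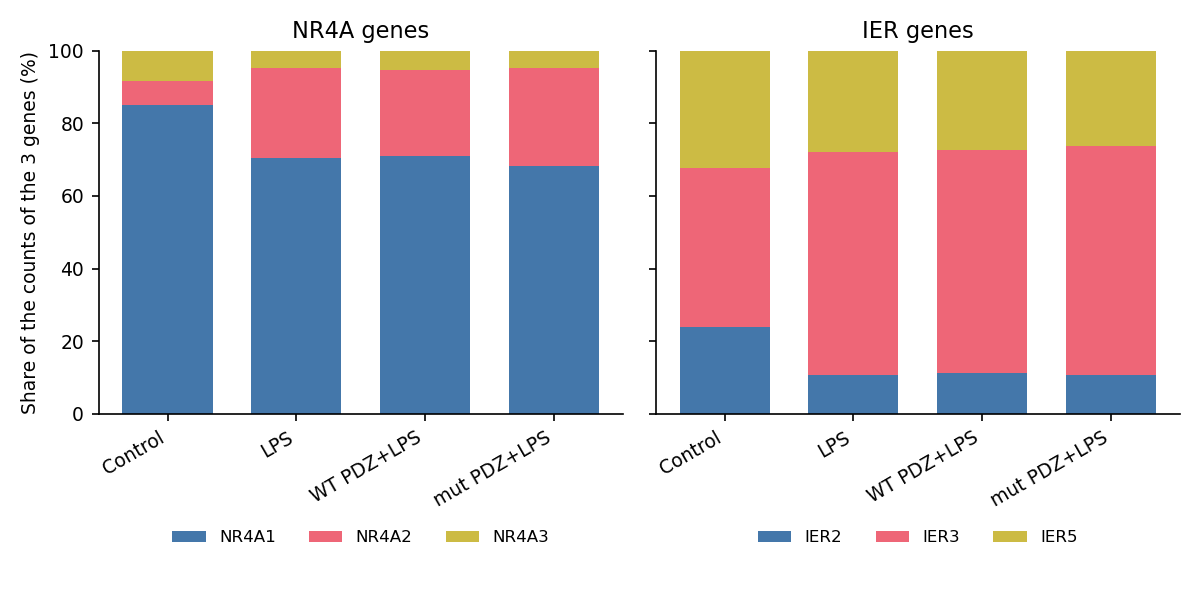
Share of the counts of the 3 NR4A genes (left) and the 3 IER genes (right) held by each gene, in percent, in the 4 libraries. The NR4A2 share was 6.43% in Control and between 23.5% and 27.2% in the LPS-treated libraries, and the IER3 share was 43.8% in Control and between 61.4% and 63.3% in the others.

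The IER genes were grouped here by name. IER3 encodes a stress-inducible regulator of cell survival, and it was counted 1980, 7144, 6473 and 8839 times. Its normalized counts were 1723, 6720, 6536 and 10386, with Control the lowest and mut PDZ+LPS the highest. The log2 fold change in LPS/Control was 1.96 (1.89 to 2.04), the 180th highest. IER5, a regulator of the heat shock response, had 1466, 3248, 2886 and 3646 counts, or 1276, 3055, 2914 and 4284 normalized counts, and stood at 1.26 (1.17 to 1.35) in LPS/Control. IER2 encodes a nuclear protein linked to transcription. It had 1076, 1246, 1183 and 1478 counts, and its value of 0.32 (0.21 to 0.44) in LPS/Control was under the 2-fold threshold with an interval above 0.

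IER3 held 43.8% of the counts of the 3 IER genes in Control (42.3% to 45.3%) and 61.4% in LPS (60.5% to 62.3%). The share of IER2 went the other way, from 23.8% (22.6% to 25.1%) to 10.7% (10.1% to 11.3%), although its own level was not lower. IER5 held 32.4% (31.1% to 33.8%) in Control and 27.9% (27.1% to 28.7%) in LPS. All 3 shares thus had intervals that did not overlap between Control and LPS, with IER3 holding more in LPS and IER2 and IER5 less.

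MYC encodes a transcription factor that pairs with MAX at E-boxes and drives growth and ribosome production. It was the most abundant of the 10 by counts in all libraries except mut PDZ+LPS, where IER3 had more, with 4870, 9466, 8806 and 7799. Its normalized counts were 4238, 8904, 8892 and 9164, so that the 3 LPS-treated libraries lay within a narrow range above Control. At 1.07 (1.02 to 1.12) on the log2 scale, LPS/Control was just past the threshold, and with total count scaling it was 0.94 and was not called.

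**Figure D2:**
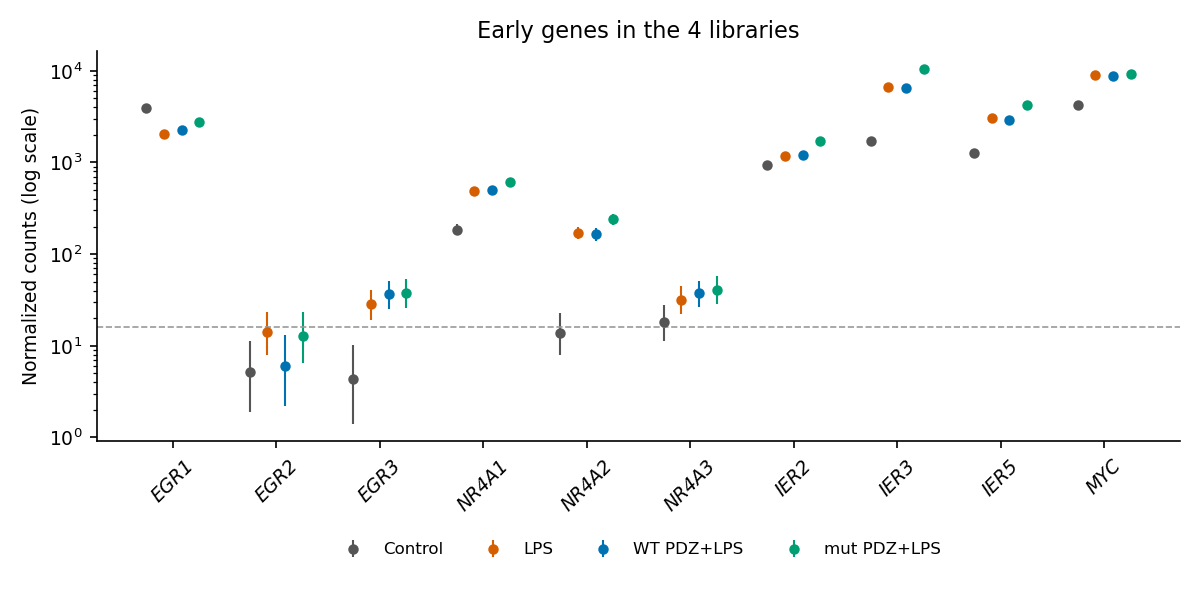
Normalized counts of the 10 early genes on a log axis, 1 point for each of the 4 libraries, with exact Poisson 95% intervals for counting error; the dashed line marks 16 normalized counts. EGR1 has its highest point in Control, the other 9 genes have their lowest point there, and EGR2 lies below the line in every library.

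Divided by transcript length, the levels of the 10 genes could be ranked within each library. In Control, MYC led with 1791 normalized counts per 1000 nt, followed by IER3 with 1276 and EGR1 with 1251, whose counting intervals overlapped. IER2 and IER5, with 319 and 305, also overlapped, NR4A1 had 52.6, and the lowest levels, of NR4A2, NR4A3, EGR2 and EGR3 at 4.01, 3.20, 1.76 and 1.0, each overlapped the next in the order. In LPS, IER3 led with 4978 per 1000 nt, MYC had 3764, IER5 730, EGR1 650, IER2 399, NR4A1 138 and NR4A2 49.0, all with separate intervals, and EGR3, NR4A3 and EGR2 followed with 6.51, 5.61 and 4.75. EGR1 thereby went from the third place among the 10 to the fourth, and from 1158th to 2580th among the 12119 genes ranked. IER3 went from 1132nd to 215th and MYC from 749th to 329th. The order depended on the transcript chosen, since MYC stood above IER3 in both the LPS and the WT PDZ+LPS library when the median transcript length replaced the longest.

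**Figure D3:**
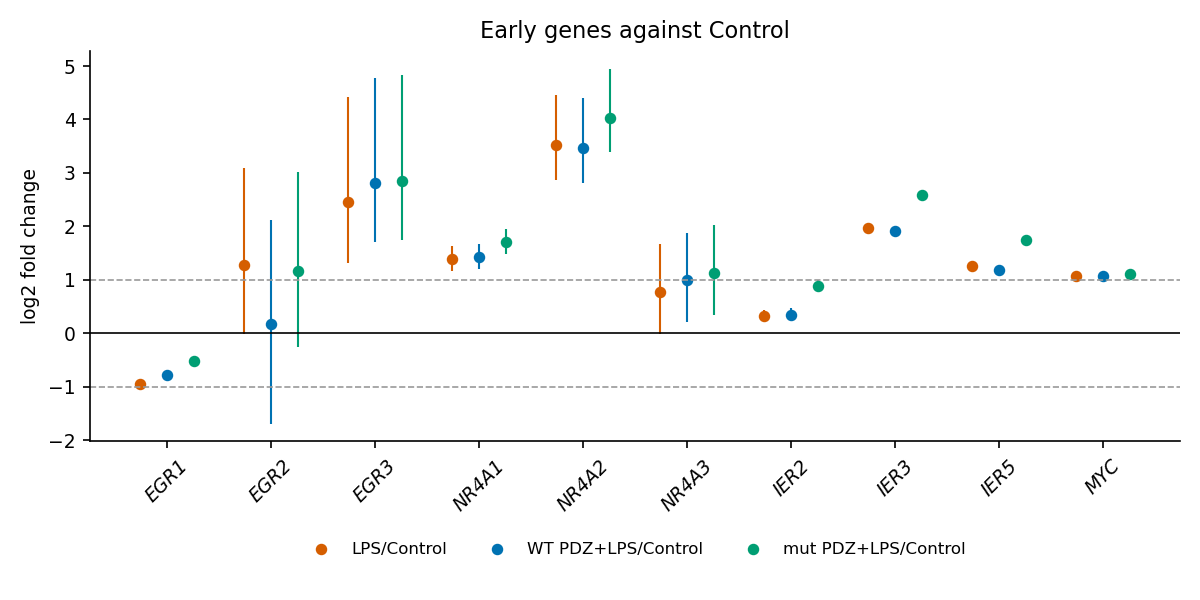
Log2 fold change of each early gene in each of the 3 LPS-treated libraries against the same Control library, with 95% counting intervals; dashed lines mark 2-fold. EGR1 lies below 0 in all 3 comparisons, at -0.95, -0.79 and -0.51, and NR4A2 has the highest values, at 3.52, 3.47 and 4.03.

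With WT PDZ before LPS, the same comparison against Control gave 6 early genes at least 2-fold higher and 0 lower, where 3.28% of all genes that passed the level rule were at least 2-fold higher and 1.42% lower. With mut PDZ before LPS, 7 were at least 2-fold higher and 0 lower, against 5.13% and 2.96% of all genes. The gene added was NR4A3, at 1.13 (0.35 to 2.02), where it had been at 0.77 with LPS alone and at 0.99 with WT PDZ. With a pseudocount of 5 it was at 0.99 in mut PDZ+LPS/Control as well and was not called, which left 6. These comparisons share the Control library, so their values are set side by side and their likeness is not a result. NR4A2 stood at 3.47 with WT PDZ and 4.03 with mut PDZ, and IER3 at 1.92 and 2.59. EGR1 stood at -0.79 (-0.86 to -0.71) and -0.51 (-0.59 to -0.44), below 0 in both. After the length and GC correction, the mut PDZ+LPS/Control values were -0.53 for EGR1, 2.21 for IER3, 4.13 for NR4A2 and 1.42 for NR4A3.

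Against LPS alone, 0 early genes differed at least 2-fold in WT PDZ+LPS, where 1.37% of all genes did so in either direction. The median over the 9 genes was 0.027, against 0.0075 over all genes. The interval lay above 0 for 1 gene, EGR1, at 0.16 (0.073 to 0.24), or 1.12-fold higher, while 12.1% of all genes had an interval above 0. MYC was at -0.0020 (-0.044 to 0.040), IER3 at -0.040 (-0.089 to 0.0087), IER5 at -0.068 (-0.14 to 0.0046) and IER2 at 0.027 (-0.089 to 0.14). For these abundant genes the counting intervals were narrow and held 0. They were wider for NR4A1, at 0.036 (-0.14 to 0.22), and NR4A2, at -0.049 (-0.36 to 0.26). The intervals were widest for the members with the fewest counts, from -0.37 to 1.11 for EGR3, from -0.49 to 0.94 for NR4A3 and from -2.87 to 0.23 for EGR2, and a difference was not detectable at this depth in any of them.

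In mut PDZ+LPS/LPS, 0 early genes differed at least 2-fold, where 3.95% of all genes did so in either direction. The median was 0.43 before and 0.40 after the length and GC correction, against -0.023 over all genes before it. The interval lay above 0 for 6 of the 10, namely EGR1, NR4A1, NR4A2, IER2, IER3 and IER5, and 28.8% of all genes had such an interval. IER3 had the largest value, 0.63 (0.58 to 0.67), and its 1350 nt transcript was the shortest of the 10, with 7.95% of ranked genes shorter. After the correction IER3 was at 0.19, and IER2 went from 0.57 to 0.35. IER5, with a transcript of 4188 nt, went up from 0.49 to 0.66, and NR4A2 went from 0.51 to 0.61. EGR1 stayed near its value, at 0.43 before and 0.40 after, as did NR4A1, at 0.32 and 0.27. EGR3 and NR4A3, whose intervals held 0, went from 0.40 to 0.57 and from 0.35 to 0.67. MYC was at 0.041 (-0.0020 to 0.085) before and -0.096 after, so that its sign depended on the correction.

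**Figure D4:**
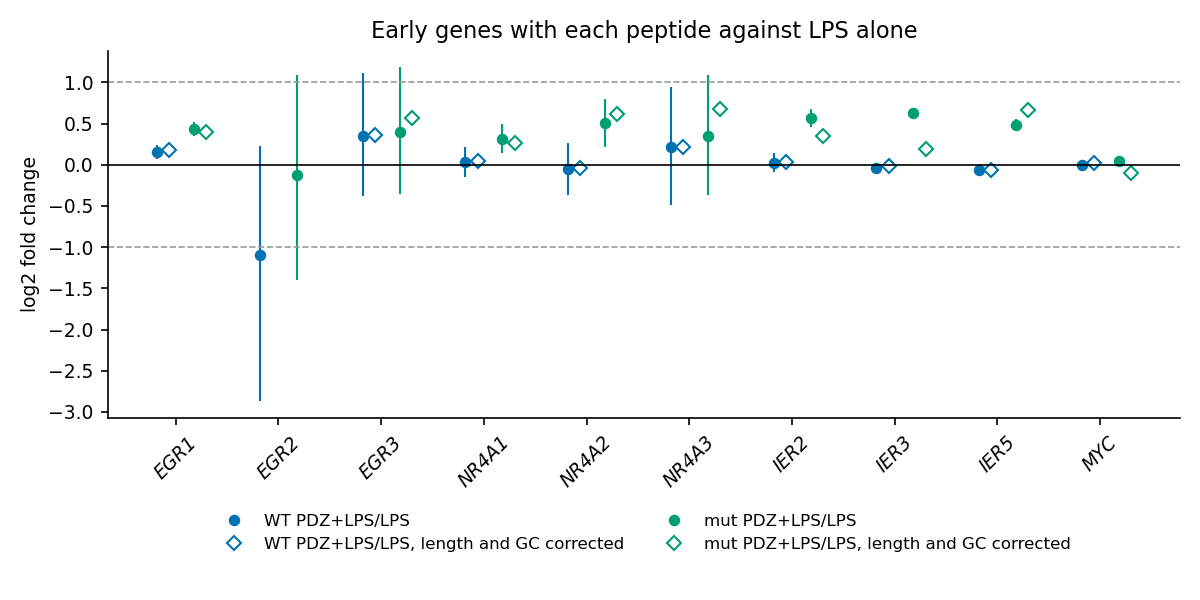
Log2 fold change of each early gene with either peptide against the same LPS library, with 95% counting intervals on the filled points; open diamonds are values after the length and GC correction, and dashed lines mark 2-fold. The mut PDZ+LPS value of IER3 moves from 0.63 to 0.19 with the correction and that of IER5 from 0.49 to 0.66.

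The peptides differ by a pair of residues and were given for the same 24 hr, so their libraries were also compared directly. Between the mut PDZ+LPS and the WT PDZ+LPS library, 0 early genes differed at least 2-fold, where 4.26% of all genes did. Before the correction all 10 values were above 0, as were 49.0% of all genes, and the interval lay above 0 for 6 genes, against 29.4% of all genes. IER3 was at 0.67 (0.62 to 0.71), IER5 at 0.56 (0.49 to 0.63), NR4A2 at 0.55 (0.25 to 0.86) and IER2 at 0.54 (0.43 to 0.65). NR4A1 and EGR1 had smaller values, 0.28 (0.10 to 0.46) and 0.27 (0.19 to 0.36), and MYC was at 0.043 (-0.00074 to 0.088). After the correction these were 0.21 for IER3, 0.74 for IER5, 0.66 for NR4A2, 0.32 for IER2, 0.22 for both NR4A1 and EGR1, and -0.11 for MYC, while EGR2 had no corrected value. In this comparison Spearman's rho with transcript length was -0.614, and with 1 library for each peptide, the peptide and the library cannot be told apart.

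The genes around the 10 were taken from lists written from general knowledge, with earlier results of these data known. The shares of all genes beside them are thus a description and not an independent check. Of 70 other immediate early genes, 68 passed the level rule in LPS/Control, of which 34 were at least 2-fold higher and 1 was lower, beside the 3.46% and 1.41% of all genes. The median of the 67 that averaged 16 or more normalized counts was 1.03. NFKBIZ, an inducible NF-kB cofactor, was at 4.25 (4.08 to 4.44), LIF, a cytokine of the IL-6 family, at 4.05 (3.94 to 4.16), IRF1, an interferon regulatory factor, at 3.62 (3.54 to 3.71) and DUSP8, a MAP kinase phosphatase, at 2.93 (2.31 to 3.78). NR4A2 thus had a smaller log2 fold change than these first 3 and a larger one than DUSP8. The gene that was lower was SPRY2, an inhibitor of receptor kinase signalling, at -1.19, which was named after its value was seen. Against LPS, 0 of these genes changed at least 2-fold with WT PDZ and 0 with mut PDZ, beside 1.37% and 3.95% of all genes. The medians were -0.068 and 0.083, the latter 0.088 after the length and GC correction, against 0.0075 and -0.023 over all genes before it. With mut PDZ against WT PDZ, 1 was at least 2-fold higher and 0 were lower, beside 4.26% of all genes changed. That gene, named after its value was seen, was KLF2, with 50 counts against 27, and its value of 1.08 became 0.60 after the correction, under the threshold.

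**Figure D5:**
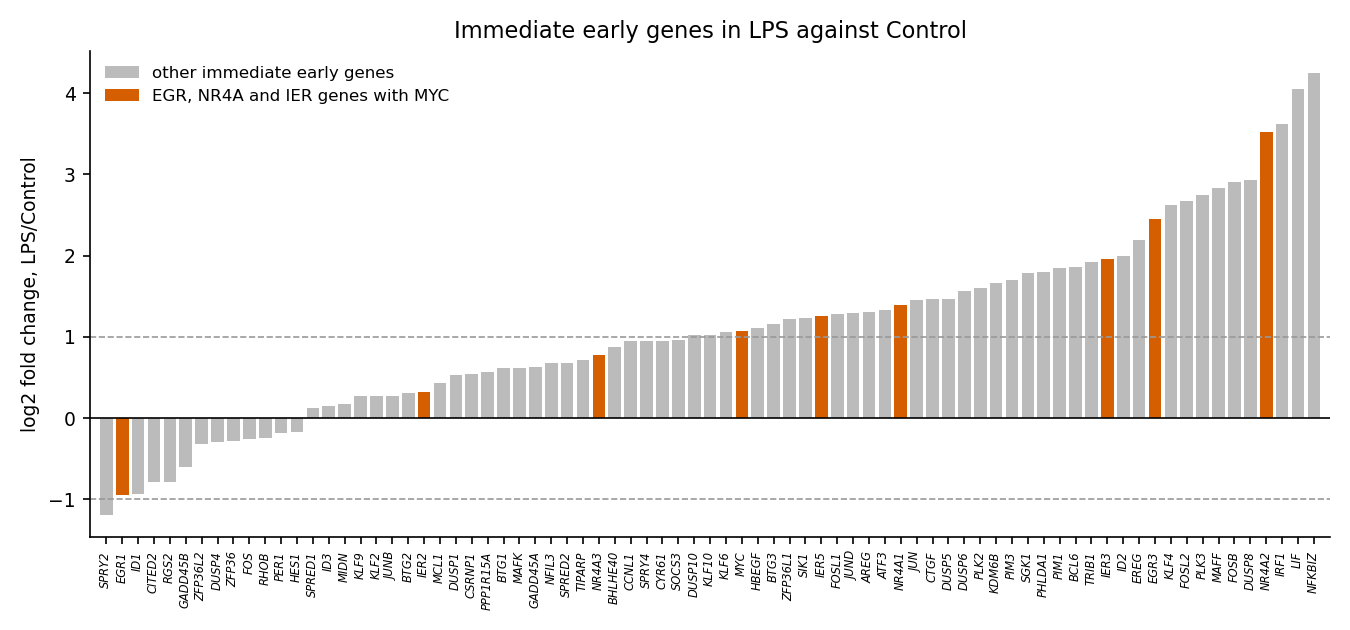
Log2 fold change in LPS/Control of the early genes that passed the level rule, 9 in orange, beside the 68 other immediate early genes that passed it in grey, in order of value; dashed lines mark 2-fold. EGR1 at -0.95 has the lowest value but that of SPRY2, and NR4A2 at 3.52 lies below IRF1, LIF and NFKBIZ.

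The lists of partners and regulators were read against the same shares of all genes in LPS/Control, 3.46% higher and 1.41% lower by at least 2-fold. NAB1, which binds EGR proteins and represses their targets, was at 1.10 (1.01 to 1.18) and was the only one of the 2 EGR corepressors and relatives that passed the level rule, of 4 listed, to be called. The other, NAB2, was at 0.83. RXRA and RXRB, dimer partners of NR4A1 and NR4A2, were at 0.13 and -0.025. Among the genes listed beside the IER members, IER5L was at -0.53 and IER3IP1 at -0.024. Of 11 MYC family members and partners, 10 passed the level rule, 0 were higher and 1 was lower, MYCL, counted 24 times in Control and 6 times in LPS (-1.72, interval -3.47 to -0.56). Of 34 MYC target genes, 33 passed the rule, with 0 changed in either direction. The median of these 33 was 0.021.

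Upstream of the early genes, 14 of 15 serum response and CREB factors passed the level rule, 0 were changed and their median was 0.14, with SRF at 0.27 and CREB1 at 0.33. Of 18 upstream kinases, 2 were higher and 0 were lower in LPS/Control, where 3.46% and 1.41% of all genes were. MAP3K8, the kinase that links NF-kB signalling to ERK, was at 3.25 (3.10 to 3.41), and MAP2K3, a kinase of the p38 branch, was at 1.83 (1.74 to 1.92). In mut PDZ+LPS/LPS, BRAF, a kinase of the ERK branch, was lower at -1.03 (-1.37 to -0.72), and at -0.54 after the length and GC correction, the 1 kinase called there beside 3.95% of all genes. In WT PDZ+LPS/LPS, 0 of the kinases changed, beside 1.37% of all genes.

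The genes whose pattern over the 4 libraries lay nearest to that of each member were found by the root mean square difference of log2 values centred on each gene's mean, over the 11437 other genes that averaged 64 or more normalized counts (11438 for EGR3 and NR4A3). With 4 libraries as the only points, many genes can lie near any pattern. The values were not corrected for length and GC, so the length trend of mut PDZ+LPS enters these differences. Nearest to EGR1 were GPR155 (0.018), FAM227A and OSBPL7, of which GPR155 had 123.6 normalized counts in Control and 63.0 in LPS. Nearest to NR4A2 were ADM (0.11), the precursor of the peptide hormone adrenomedullin, CXCL2, a neutrophil-attracting chemokine, and IRF1. Normalized counts of ADM ran from 101.8 in Control to 1291 in LPS. Nearest to IER3 were ID2 (0.041), CCDC71L and C1QTNF1, and nearest to IER5 were GDF15 (0.051), SLPI and TGIF1.

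For the other members the nearest were WFDC21P (0.049), SNCAIP and USP43 for NR4A1, STC2 (0.017), FAM20C and CD55 for NR4A3, and GRAMD1A (0.17), C11orf86 and SERPINB4 for EGR3. They were TRAF3IP2-AS1 (0.022), ZGPAT and TIMP1 for IER2 and DCUN1D3 (0.030), SDR16C5 and CELF1 for MYC. Among the 10 genes themselves, the closest pair was NR4A1 and IER5, with a difference of 0.11, and the next was NR4A3 and MYC, with 0.12. The closest pair within a family was NR4A1 and NR4A3, with 0.245, whereas NR4A1 and NR4A2 differed by 0.94, IER3 and IER5 by 0.33, and EGR1 and EGR2 by 0.83. The most distant pair was EGR1 and NR4A2, with 1.92.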

How the data were processed

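RNA sequencing libraries had been made from poly(A)-selected RNA with a directional kit. The authors trimmed the reads, aligned them (TopHat and hg19, per the submitters' processing notes) and deposited unnormalized counts of reads for each gene symbol. The counting tool, annotation and strand setting are not given in the sources used here, so reads from a gene and an antisense partner cannot be told apart. Groups came from the sample labels, with 1 library each, and the total of each library is its depth.

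The members and lists were chosen with earlier results of these data known. Size factors came from DESeq2 1.42.0 (R 4.3.3), over all genes of the 4 libraries. Fold changes are on the log2(normalized count + 1) scale and understate the change of low genes. Their intervals do not include the added 1. A gene was changed at 2-fold or more with 4 or more on the log2 normalized scale in one of the 2 libraries. Ratio and share intervals are Clopper-Pearson, levels have exact Poisson intervals, and all are limited to counting error, because the reads carry no molecular identifiers and are not independent molecules. Lengths and GC content came from the longest protein-coding transcript in GENCODE 29, used without coordinates. For the length and GC correction, lowess trends (span 0.3) over length and then GC content were subtracted. All 10 members were named. From each other list, up to 4 genes changed in LPS/Control and up to 3 changed in each peptide library against LPS were named by size, and the 3 nearest genes to each member by pattern, for members that averaged 16 or more normalized counts. The calling steps were run on simulated counts with counting error as the only random variation and with planted changes larger than 2-fold. That run checks the steps and not 2-fold calls from single libraries. Alternatives were a pseudocount of 5, scaling by upper quartile, total count or TMM (edgeR 4.0.16), other level rules, folds of 1.5 and 3, the length and GC correction and the median transcript length. Other tools were statsmodels 0.14.6 for lowess, scipy 1.17.1 for intervals, and pandas 2.3.3, numpy 2.4.6 and matplotlib 3.10.9 in Python 3.11.15.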

Additional observations from a re-analysis of the deposited data

How the results depend on the processing

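The numbers of early genes changed at least 2-fold were within 1.5 times the reported ones in 49 of 54 recomputed values. A reported 0 was matched by 0 alone, and a 3-fold threshold or a higher minimum level could not raise it. These numbers do not show whether the same genes were called. With a threshold of 3-fold the number was 3 in LPS/Control and 3 in WT PDZ+LPS/Control, namely EGR3, NR4A2 and IER3. With a threshold of 1.5-fold it was 1 for mut PDZ against LPS alone and 1 for mut PDZ against WT PDZ, IER3 in both, which the length and GC correction put at 0.19 and 0.21. With no minimum level it was 1 in WT PDZ+LPS/LPS, EGR2 at 6 counts against 15. With a minimum level of 6 on the log2 normalized scale it was 5 in each comparison with Control. These were NR4A1, NR4A2, IER3, IER5 and MYC, so that EGR3 was no longer called. With total count scaling MYC was not called in LPS/Control or WT PDZ+LPS/Control, EGR1 was called lower in LPS/Control, and the median of all genes moved to -0.13 in LPS/Control. With a pseudocount of 5, NR4A3 was not called in mut PDZ+LPS/Control. Only the length and GC correction turned a sign among the members, that of MYC in each of the 3 comparisons between LPS-treated libraries. No paired analysis was possible because each condition had 1 library, and for the same reason no library could be left out. The counts of EGR2, EGR3 and NR4A3 set the limit of what could be detected for them.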
